A study of Mus musculus with 12 samples.

Results

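Adipsin, encoded by Cfd, and 8 other genes of the complement system were followed across 12 RNA-seq libraries of mouse adipose stromal vascular fraction, the cells of fat tissue (precursor, vessel and immune cells) other than mature adipocytes. The 9 genes, out of 24422 counted features, were taken by symbol: Cfd, Cfb, Cfp, C3, C4b, C1qa, C1qb, C3ar1 and C5ar1. Cfd led the choice because its count was low on the high-fat diet in these libraries. Its diet values, and every comparison of Cfd that holds the HFD mCherry or SD mCherry libraries, are given as a description with no test. Complement is a cascade of blood proteins in which serine proteases cut one component after another. Adipsin, a protease best known as a secreted product of adipocytes, cuts factor B (Cfb) bound to C3b to form the alternative pathway convertase, which properdin (Cfp) holds together. The classical pathway starts with C1q and runs through C4 to the same central component, C3, and the peptides C3a and C5a act through the receptors C3ar1 and C5ar1, which are known for their expression on myeloid cells.

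All 4 groups held 3 libraries. The controls, with the genotype p21+/mcherry, ate standard chow (SD mCherry, replicates 1, 2 and 3) or high-fat chow (HFD mCherry, which are replicates 15, 17 and 20). The other groups, p21+/mcherry-Tert (HFD Tert, replicates 25, 26 and 27) and p21+/mcherry-TertCi (HFD TertCi, replicates 30, 31 and 33), were fed the high-fat diet, and in them the promoter of p21 (Cdkn1a) drives the telomerase gene Tert or TertCi, a catalytically inactive form. Every animal, controls included, thus carried 1 altered p21 allele, and the transgene was made only where the p21 promoter is active. The series' design text calls the high-fat diet controls p21+/- without naming mCherry, and the sample labels were followed. Age, sex, fat depot and the time on the diet are not given in the labels. Nor do they say that replicates came from separate animals, so the p-values measure the spread between these samples, which may be technical.

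The libraries held 16430330 to 19486965 counts, and 16713 genes passed the low-count filter, all 9 complement genes among them. The labelled cell type, stromal cells, was checked against markers: the adipose progenitor list (10 of 10 genes tested, among them Pdgfra and Dpp4) had a mean log2 CPM of 7.64 to 10.1 in every library, and the macrophage list (12 of 12 genes) one of 4.38 to 7.79. CPM is the count scaled to the TMM-adjusted library size. Adipoq, the defining adipocyte gene, stood at 0.552 to 7.85 CPM. Genes of epididymis and epithelium (9 of 13 tested) varied widely inside groups. In HFD mCherry the mean log2 CPM of that list was 8.72 in replicate 15, 3.52 in replicate 17 and 2.33 in replicate 20. In HFD Tert it was 8.53, 7.76 and -0.86, in SD mCherry 9.23, 5.90 and 9.39, and in HFD TertCi 8.91, 2.998 and 7.49. In HFD mCherry against SD mCherry 8 of the 9 genes were lower, with a median log2 fold change of -2.21. The part of this list in the complement values was not tested. HFD mCherry replicate 15, HFD Tert replicate 27 and SD mCherry replicate 3 stood apart from their groups for several complement genes, as given below. In bulk RNA, fewer cells of a type and less RNA per cell cannot be told apart.

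The promoters of Cfd, C3 and C1qb are shown. Cfd had its lowest mean in HFD mCherry, while C3 and C1qb both had their highest mean there. The sequences are the 250 bases before the start site in RefSeq, build GRCm38.p6, read on the gene's strand. Capitals mark matches on either strand to 4 motifs: GAGGAA (the PU.1 core), TTNNGNAA (C/EBP), the nuclear receptor half-site AGGTCA, and the PPAR element, in which that half-site is repeated after 1 spacer base.
Cfd, chr10:79890603-79890852, + strand: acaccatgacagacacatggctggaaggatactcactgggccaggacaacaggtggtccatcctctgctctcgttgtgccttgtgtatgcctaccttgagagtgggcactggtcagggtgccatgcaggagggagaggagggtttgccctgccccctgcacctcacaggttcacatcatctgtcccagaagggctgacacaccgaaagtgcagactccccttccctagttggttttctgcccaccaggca
C3, chr17:57228137-57228386, - strand: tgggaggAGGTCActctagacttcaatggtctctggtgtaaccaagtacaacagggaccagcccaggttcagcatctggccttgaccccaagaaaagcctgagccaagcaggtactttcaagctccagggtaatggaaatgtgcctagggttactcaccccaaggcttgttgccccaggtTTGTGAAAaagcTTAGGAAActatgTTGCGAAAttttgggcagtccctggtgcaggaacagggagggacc
C1qb, chr4:136886201-136886450, - strand: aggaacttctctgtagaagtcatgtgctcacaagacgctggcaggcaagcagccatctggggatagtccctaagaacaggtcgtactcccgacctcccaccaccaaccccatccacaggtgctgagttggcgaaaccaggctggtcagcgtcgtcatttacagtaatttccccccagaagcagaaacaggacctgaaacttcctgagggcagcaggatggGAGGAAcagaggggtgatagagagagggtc
The C3 sequence held 3 C/EBP matches, beginning 70, 58 and 45 bases before the start, and a half-site 243 bases before it. C1qb held 1 PU.1 match, 30 bases before the start, and Cfd held none of the 4 motifs. Among 27025 RefSeq promoter windows of 300 bases (250 before and 50 after the start), 28.3% held the PU.1 core, 40.7% the C/EBP motif, 16% the half-site and 0.0444% the PPAR element. RefSeq windows were matched for 6 of the 9 genes, those of Cfd, C3, Cfp, C3ar1, C5ar1 and C1qb. Of those not shown, C3ar1, whose highest mean was also in HFD mCherry, likewise held none of the 4 motifs. C5ar1 held 1 C/EBP match before the start, and the PU.1 and half-site matches of Cfp all lay after it. A match describes letters in a window and is not evidence of binding.

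Cfd was nearly uncounted in stromal cells of HFD mCherry mice and was counted in every other group. The gene lies at chr10:79890853-79892655 on the + strand (build GRCm38, GENCODE M21, as for the genes below; 922 bases of exon). SD mCherry held 377, 326 and 174 reads (19.2, 15.8 and 10.1 CPM), and each HFD mCherry library held 7 reads (0.387, 0.421 and 0.418 CPM). HFD Tert held 98, 248 and 68 reads (5.72, 13.2 and 3.996 CPM), and HFD TertCi held 37, 43 and 38 (1.89, 2.77 and 1.90 CPM). The HFD mCherry libraries were the lowest of the 12, HFD TertCi came next, and HFD Tert and SD mCherry overlapped.

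The level was 15.03 ± 4.61 CPM (SD, n = 3) for SD mCherry, 0.409 ± 0.0190 for HFD mCherry, 7.65 ± 4.92 for HFD Tert and 2.19 ± 0.504 for HFD TertCi. A count of 7 has an exact 95% Poisson interval of 2.81 to 14.4 reads, and counts of 174 to 377 have intervals of 149 to 202 and 340 to 417. These intervals cover counting error only. The log2 fold change in edgeR's quasi-likelihood fit was -5.18 ± 0.54 (SE) for HFD mCherry against SD mCherry. Against HFD mCherry it was 4.21 ± 0.52 in HFD Tert and 2.40 ± 0.49 in HFD TertCi, comparisons that share the HFD mCherry libraries with the first. Against SD mCherry it was -0.97 ± 0.44 in HFD Tert, whose libraries overlapped SD mCherry, and -2.78 ± 0.47 in HFD TertCi, whose libraries did not.

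Among HFD mice carrying Tert or TertCi, the HFD Tert libraries held more Cfd in 3 of 3, by a log2 fold change of 1.81 ± 0.46. Libraries of these groups likewise did not overlap for 5.13% of all genes, in either direction. Cfd was chosen for its low count on the high-fat diet, which both groups ate, with earlier results of these data known. Independence from that choice is not established for this comparison. Its unadjusted edgeR p was 0.00237 and its adjusted p 1, with 227 of 16713 genes (1.36%) under an unadjusted p of 0.05. The difference therefore was not called, and DESeq2 gave an adjusted p of 0.36, the lowest of 19 alternatives, which ran up to 1. Without HFD Tert replicate 26 the log2 fold change was 1.15.

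The list of 13 adipocyte genes, on which Cfd is not, had a summed level of 597 to 955 CPM for SD mCherry and 1818 to 4684 CPM for HFD mCherry, 1206 to 7579 for HFD Tert and 2232 to 4405 for HFD TertCi. Lpl (142 ± 61.7 CPM on the standard diet and 1929 ± 1068 in HFD mCherry) and Fabp4 (329 ± 120 and 1182 ± 439; SD, n = 3) made up most of that sum, while Plin4 stood at 67.6 ± 27.1 and 17.4 ± 4.25. In HFD mCherry against SD mCherry 7 of its 13 genes were higher and 6 lower, with a median log2 fold change of 0.15. Adipoq, whose counts are as low as 10 reads in some libraries, gave a Cfd to Adipoq count ratio of 4.01 to 8.70 for SD mCherry, 0.212 to 0.700 for HFD mCherry, 1.24 to 2.58 for HFD Tert and 0.606 to 1.03 for HFD TertCi. This ratio was chosen after values were seen. The mesothelial list (7 of 7 tested), by contrast, had summed levels of 494 to 1227 CPM for SD mCherry, 308 to 340 for HFD mCherry, 814 to 1635 for HFD Tert and 704 to 1082 for HFD TertCi. Krt19 had the highest mean of that list in SD mCherry, 462 ± 201 CPM, and stood at 86.6 ± 86.7 in HFD mCherry (SD, n = 3). Wt1 went the other way, from 34.1 ± 20.6 to 98.6 ± 57.3. Of the 7 genes, 6 were lower and 1 higher on the diet, with a median log2 fold change of -0.665. The mean log2 CPM of the list overlapped between SD mCherry and HFD mCherry. The part of these markers in the Cfd values was not tested.

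**Figure D1:**
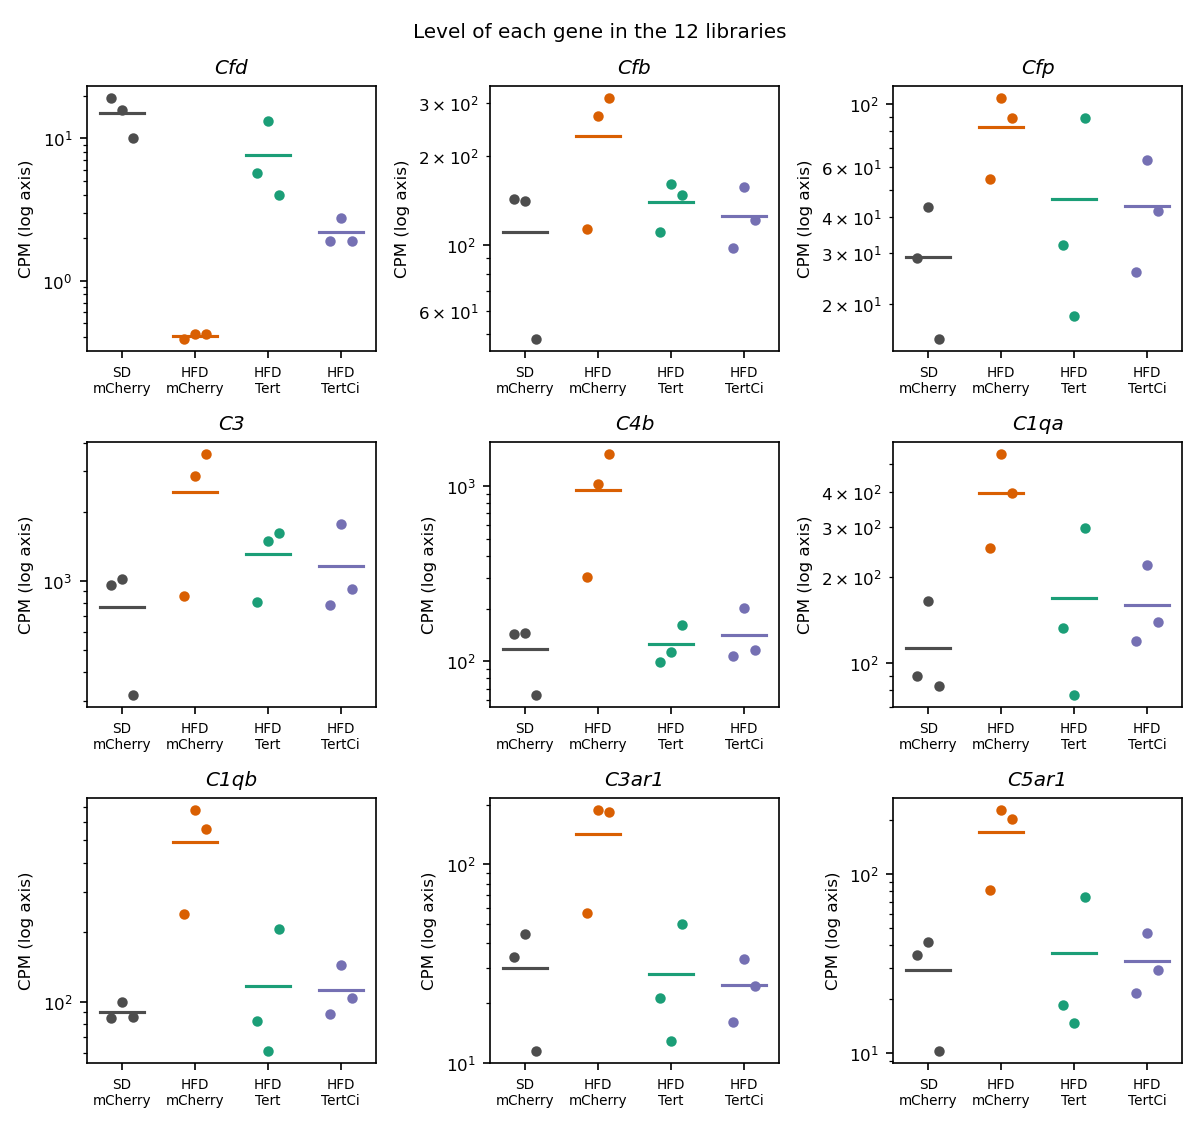
Level of each gene in CPM (log axis) in the 3 libraries of each of 4 groups: points are libraries and horizontal lines group means. Cfd stood between 0.387 and 0.421 CPM in HFD mCherry, below every other library, while for the other 8 genes the highest group mean was that of HFD mCherry.

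The other alternative pathway genes had their highest mean in HFD mCherry, with wide spread. Cfb (chr17:34856374-34862518, - strand) encodes the protease subunit of the alternative convertase. Its level was 143, 141 and 48.1 CPM for SD mCherry, 113, 273 and 313 for HFD mCherry, 110, 161 and 147 for HFD Tert, and 97.3, 157 and 122 for HFD TertCi. HFD mCherry replicates 17 and 20 were the highest libraries, but replicate 15 lay inside the range of the other groups. The log2 fold change was 1.08 ± 0.45 on the diet (edgeR adjusted p = 0.185), -0.74 ± 0.45 for HFD Tert (adjusted p = 0.419) and -0.90 ± 0.45 for HFD TertCi (adjusted p = 0.388) against HFD mCherry.

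Properdin, encoded by Cfp (chrX:20925454-20931555, - strand), stabilises that convertase and is made largely by leukocytes. Its level was 28.8, 43.5 and 15.003 CPM for SD mCherry, 54.6, 104.6 and 88.9 for HFD mCherry, 32.0, 18.2 and 89.0 for HFD Tert, and 25.8, 63.7 and 42.1 for HFD TertCi. The SD and HFD mCherry groups did not overlap, while HFD Tert replicate 27 and HFD TertCi replicate 31 lay inside the HFD mCherry range. The diet log2 fold change was 1.51 ± 0.59 (edgeR adjusted p = 0.167), that of HFD Tert was -0.84 ± 0.58 (adjusted p = 0.482) and that of HFD TertCi was -0.92 ± 0.58 (adjusted p = 0.485).

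C3 and C4b, the central component and the classical pathway component that forms its convertase, differed in how cleanly their groups separated. C3 lies at chr17:57203970-57228136 (- strand). Its level was 964, 1016 and 317 CPM for SD mCherry, 858, 2861 and 3570 for HFD mCherry, 807, 1499 and 1614 for HFD Tert, and 784, 1778 and 924 for HFD TertCi. HFD mCherry replicate 15 lay below 2 of the SD mCherry libraries, so the groups overlapped. The diet log2 fold change was 1.67 ± 0.60 (edgeR adjusted p = 0.143), and against HFD mCherry it was -0.90 ± 0.59 in HFD Tert and -1.06 ± 0.59 in HFD TertCi (adjusted p = 0.456 and 0.427).

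C4b (chr17:34728380-34743882, - strand) had the highest diet log2 fold change of the 9 genes, 3.01 ± 0.57. Its level was 144, 146 and 64.1 CPM for SD mCherry, 303, 1026 and 1524 for HFD mCherry, 99.1, 114 and 162 for HFD Tert, and 107, 203 and 117 for HFD TertCi. All 3 HFD mCherry libraries lay above all 9 others, including replicate 15, while the other 3 groups overlapped one another. The edgeR adjusted p was 0.0659 on the diet, just over the threshold of 0.05. Against HFD mCherry the log2 fold change was -2.93 ± 0.57 in HFD Tert (adjusted p = 0.157) and -2.74 ± 0.56 in HFD TertCi (adjusted p = 0.154). C4a, a near-identical copy, held 8 to 87 reads where C4b held 1107 to 25516, and reads could be split between the copies.

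The C1q subunits, which recognise antibody-bound and dying-cell surfaces and are made mainly by macrophages, were likewise highest in HFD mCherry. C1qa (chr4:136895917-136898803, - strand) had 89.4, 165 and 83.0 CPM for SD mCherry, 252, 542 and 396 for HFD mCherry, 132, 76.7 and 297 for HFD Tert, and 119, 221 and 139 for HFD TertCi. Its HFD mCherry libraries lay above every SD mCherry and HFD TertCi library, but HFD Tert replicate 27 lay above HFD mCherry replicate 15. C1qb (chr4:136880129-136886187, - strand) had 85.3, 99.5 and 86.1 CPM for SD mCherry, 239, 677 and 560 for HFD mCherry, 82.5, 61.0 and 206 for HFD Tert, and 88.2, 144 and 104 for HFD TertCi. For C1qb the HFD mCherry libraries lay above all 9 others.

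The diet log2 fold change of C1qa was 1.82 ± 0.51 (edgeR adjusted p = 0.0889) and that of C1qb was 2.45 ± 0.49 (adjusted p = 0.0659). Against HFD mCherry, C1qa stood at -1.24 ± 0.50 in HFD Tert (adjusted p = 0.27) and -1.31 ± 0.50 in HFD TertCi (adjusted p = 0.274). C1qb stood at -2.08 ± 0.49 (adjusted p = 0.187) and -2.13 ± 0.49 (adjusted p = 0.165). Their neighbour C1qc, the third subunit, had 71.6 ± 22.7 CPM (SD, n = 3) for SD mCherry, 358 ± 150 for HFD mCherry, 97.1 ± 62.5 for HFD Tert and 102 ± 32.3 for HFD TertCi.

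The anaphylatoxin receptor genes C3ar1 (chr6:122847138-122856161, - strand) and C5ar1 (chr7:16246743-16259540, - strand) had diet differences between those of C1qa and C4b. C3ar1 stood at 34.3, 44.4 and 11.4 CPM for SD mCherry, 56.8, 188 and 183 for HFD mCherry, 21.1, 12.9 and 50.0 for HFD Tert, and 15.97, 33.5 and 24.4 for HFD TertCi. C5ar1 stood at 35.2, 41.7 and 10.3 CPM for SD mCherry, 81.2, 227 and 203 for HFD mCherry, 18.7, 14.7 and 74.5 for HFD Tert, and 21.7, 46.7 and 29.0 for HFD TertCi. For both genes every HFD mCherry library lay above all 9 others, by a small margin over HFD Tert replicate 27 from replicate 15.

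On the diet the log2 fold change of C3ar1 was 2.25 ± 0.65 (edgeR adjusted p = 0.0947) and that of C5ar1 was 2.55 ± 0.72 (adjusted p = 0.0895). Against HFD mCherry, C3ar1 stood at -2.35 ± 0.66 in HFD Tert (adjusted p = 0.195) and -2.54 ± 0.66 in HFD TertCi (adjusted p = 0.19). C5ar1 stood at -2.24 ± 0.71 (adjusted p = 0.217) and -2.39 ± 0.72 (adjusted p = 0.212). Macrophage markers moved with these receptors and with C1q: all 12 listed genes were higher on the diet, with a median log2 fold change of 1.91, and all 12 were lower in both Tert groups against HFD mCherry, with medians of -1.77 and -1.82. Their summed level was 1083 to 1105 CPM for SD mCherry, 2314 to 6696 for HFD mCherry, 844 to 2389 for HFD Tert and 1015 to 1722 for HFD TertCi. The progenitor list moved in the same direction for 9 of 10 genes on the diet (median 1.12), and the part of either list in the complement values was not tested.

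**Figure D2:**
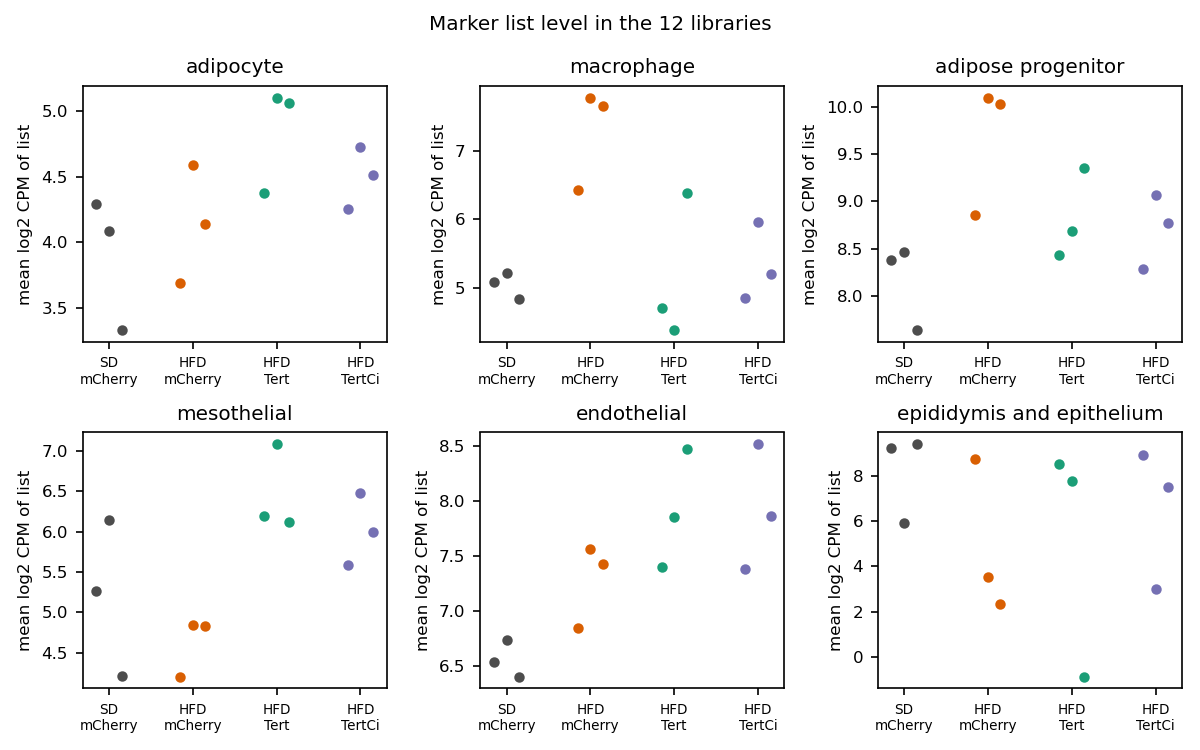
Mean log2 CPM of 6 marker lists in each library (points), by group. Macrophage and progenitor levels were highest in HFD mCherry replicates 17 and 20, the mesothelial level was lowest on average in HFD mCherry, and the epididymis and epithelium level ranged from -0.86 to 9.39.

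Calls in the comparisons that hold the HFD mCherry libraries were counted over the 8 genes other than Cfd. On the diet edgeR called 0 of 8, beside 0.0479% of all genes (8 of 16713). All 8 were positive, as were 45.9% of all genes, with log2 fold changes of 1.08 to 3.01. Unadjusted p was under 0.05 for all 8, beside 24.1% of all genes in either direction. The median of the 8 was 2.03, and that of all genes -0.0753. Libraries did not overlap for 6 of the 8, all higher on the diet (13.9% of all genes). Cfd was lower without overlap, as were 11.6% of all genes, a value that its choice used. DESeq2 called 6 of the 8 (C3, C4b, C3ar1, C5ar1, C1qa and C1qb), beside 12.4% of all genes.

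The number of diet calls depended on single libraries. Without HFD mCherry replicate 15, edgeR called the same 6 genes as DESeq2, beside 12.2% of genes. Without HFD Tert replicate 27 it called 4 of the 8 (C4b, C5ar1, C1qa and C1qb), beside 4% of genes. With the epididymis and epithelium level as a covariate it called those 4 genes as well (3.18% of genes). Leaving out any other library gave 0 of 8. Without replicate 15 the diet log2 fold change of C4b was 3.43 ± 0.43 and that of C1qb was 2.78.

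In HFD Tert against HFD mCherry edgeR called 0 of the 8 genes, and 0 of 16713 genes in all. Unadjusted p was under 0.05 for 5 of 8 (16.4% of all genes). DESeq2 called 4 of 8 (C4b, C3ar1, C5ar1 and C1qb), beside 5.08% of all genes. Libraries did not overlap for these 4 genes, lower in HFD Tert (11.1% of all genes). Cfd was higher without overlap, as were 9.99% of all genes, but its choice used the HFD mCherry values. In HFD TertCi against HFD mCherry edgeR called 0 of 8 (0.0120% of all genes), with 5 at an unadjusted p under 0.05 (14.7%), and DESeq2 called the same 4 genes (4.09%). There 5 genes did not overlap in the lower direction (12% of all genes). Cfd did not overlap in the higher (9.45%), again beside HFD mCherry values that its choice used.

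Without HFD mCherry replicate 15 edgeR called C4b in HFD Tert (0.299% of genes) and C4b and C1qb in HFD TertCi (1.16% of genes). With the epididymis and epithelium covariate it called 5 of 8 in HFD Tert (3.84% of genes), the 4 above and C1qa, and the same 4 in HFD TertCi (1.76% of genes). Both comparisons share the HFD mCherry libraries. The medians over the 8 genes were -1.66 and -1.72, beside -0.0534 and -0.0389 over all genes.

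Between HFD Tert and HFD TertCi, no difference was called for the 8 genes other than Cfd, which does not show that they were equal. Their log2 fold changes ran from -0.19 to 0.19, their standard errors from 0.45 to 0.68, and their libraries all overlapped, while 5.13% of all genes did not overlap. The edgeR adjusted p was 1 for each, with 0 of 16713 genes called, and 7 genes (0.0419%) in DESeq2. Of these 8 genes, 0 differed from SD mCherry beyond the overlap of libraries in either HFD Tert or HFD TertCi (23.3% and 20.3% of all genes did not overlap), with log2 fold changes from -0.29 to 0.77.

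**Figure D3:**
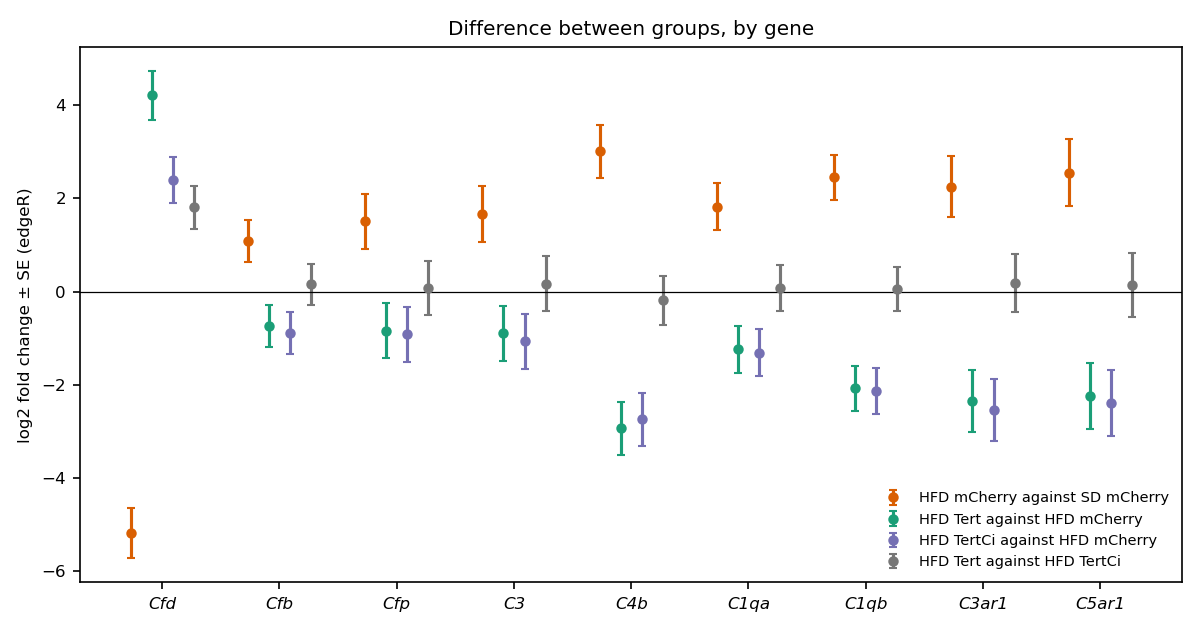
Log2 fold change of each gene in 4 comparisons from the edgeR fit over all 12 libraries, with bars of 1 SE. Cfd lies at -5.18 on the diet and above 0 in the others, while the other 8 genes lie above 0 on the diet, below 0 for both Tert groups against HFD mCherry, and within 0.19 of 0 between those groups.

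Levels between genes were compared only as CPM per kb of exon. In SD mCherry, C3 (149), C1qa (108) and C1qb (83.0) led, Cfb (39.1), C4b (20.7), Cfp (16.8), Cfd (16.3) and C5ar1 (11.3) followed, and C3ar1 (6.98) was lowest. In HFD mCherry, C3 (472), C1qb (452) and C1qa (382) led, then C4b (167), Cfb (82.5), C5ar1 (66.2), Cfp (47.6) and C3ar1 (33.1), with Cfd (0.443) last. In HFD Tert Cfd stood at 8.30 and in HFD TertCi at 2.37. Adjacent genes in the orders often differ by less than the spread of their libraries.

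Across the 12 libraries, the genes with the closest pattern to Cfd, by Pearson correlation of log2 CPM over 15302 candidate genes, were Nrxn2 (0.928), Rasl12 (0.916), Gpr27 (0.915), Prpsap1 (0.905) and Ift46 (0.904). Cfd itself correlated between -0.82 (C1qb) and -0.45 (Cfb) with the other 8. The other 8 correlated with one another between 0.685 (Cfb with C1qb) and 0.983 (C3ar1 with C5ar1). Closest to C5ar1 were Csf1r, the receptor for macrophage colony stimulating factor, and Cd180 (both 0.988), and closest to C1qb was the macrophage gene Cd68 (0.993). Closest to C4b was Mfap2 (0.988) and closest to C3 was P4ha1 (0.986). These correlations describe 12 libraries that share groups and cell composition, and they carry no test.

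Ratios of counts inside each library, also chosen after values were seen, set each gene beside a second gene of the same library. C4b per C3 was 0.353 to 0.427 for HFD mCherry and 0.143 to 0.202 for SD mCherry, 0.0759 to 0.123 for HFD Tert and 0.114 to 0.137 for HFD TertCi, so the HFD mCherry libraries did not overlap any other group. C4b per Pdgfra was 1.53 to 6.58 in HFD mCherry, above SD mCherry (0.759 to 1.42) but overlapping HFD Tert (1.33 to 1.86) and HFD TertCi (1.67 to 3.58). C3 per Pdgfra was 4.34 to 15.4 in HFD mCherry and 3.75 to 9.89 in SD mCherry. It reached higher in HFD Tert (10.9 to 24.5) and HFD TertCi (12.2 to 31.35). C5ar1 per Csf1r was 0.656 to 0.739 in HFD mCherry, above SD mCherry (0.496 to 0.616), and HFD Tert (0.337 to 0.660) and HFD TertCi (0.479 to 0.669) reached into its range. Cfp per Csf1r lay the other way, at 0.315 to 0.441 in HFD mCherry and 0.474 to 0.726 in SD mCherry, with 0.416 to 0.825 in HFD Tert and 0.598 to 0.912 in HFD TertCi. C3ar1 per Csf1r overlapped between HFD mCherry (0.459 to 0.647) and SD mCherry (0.552 to 0.657). C1qb per Csf1r was 1.93 to 2.21 in HFD mCherry and 1.40 to 4.17 in SD mCherry, with the high end from replicate 3. C1qa per Csf1r was 1.40 to 2.04 in HFD mCherry and 1.47 to 4.01 in SD mCherry. In HFD Tert that ratio was 1.76 to 3.41 and in HFD TertCi 2.30 to 3.17.

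**Figure D4:**
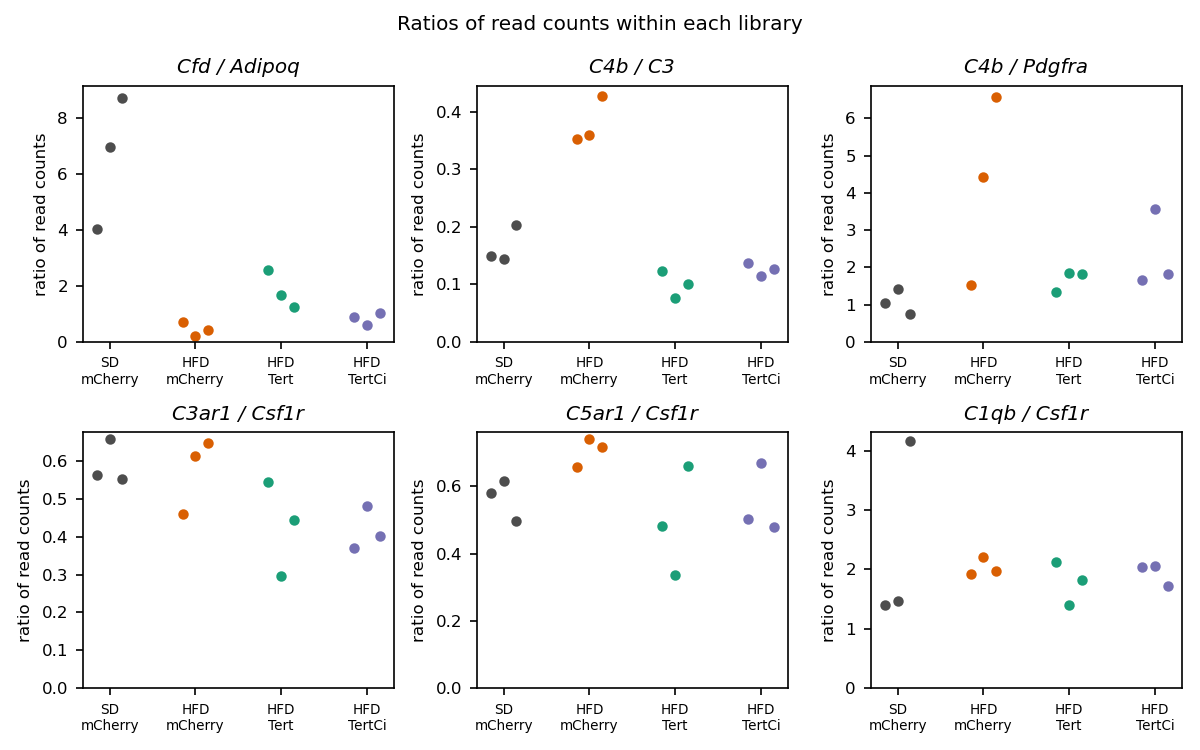
Ratios of read counts within each library, by group (points are libraries, linear axes from 0). C4b to C3 was 0.353 to 0.427 in HFD mCherry, above every other library, while C1qb to Csf1r and C3ar1 to Csf1r overlapped across groups.

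The rest of the pathway was read from a list of 50 other complement genes, of which 40 were tested, and edgeR called 0 of 40 on the diet beside 0.0479% of all genes. Unadjusted p was under 0.05 for 16 of 40, all higher on the diet, beside 24.1% of all genes in either direction. DESeq2 called 12 of 40, beside 12.4%. Without HFD mCherry replicate 15 edgeR called 14 of 41 (12 higher, with Clu and Susd4 lower), beside 12.2% of genes, and without HFD Tert replicate 27 it called 6 of 41, beside 4%. Of the 40, 28 were higher and 12 lower, with a median log2 fold change of 1.31, while 45.9% of all genes were higher. Libraries did not overlap for 13, all higher, beside 13.9% of all genes. Receptors (8 tested, 6 higher and 2 lower) had the highest median, 2.29. Itgax, an integrin chain of complement receptors that also marks dendritic cells and some macrophages, had a level of 8.56 ± 2.08 CPM (SD, n = 3) on the standard diet and 224 ± 155 in HFD mCherry, a log2 fold change of 4.71 ± 1.19 (edgeR adjusted p = 0.076). Its partner chain Itgb2 stood at 18.1 ± 6.92 and 175 ± 93.8 CPM, 3.27 ± 0.78 (adjusted p = 0.0727), and Cd93 at 96.7 ± 24.1 and 496 ± 165, 2.36 ± 0.50 (adjusted p = 0.0659).

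Classical pathway genes (8 tested, 7 higher and 1 lower) had a median of 1.47. C1qc was at 2.32 ± 0.51 (adjusted p = 0.0671), C1s1 at 1.77 ± 0.48 (adjusted p = 0.0845) and C1ra at 1.53 ± 0.43 (adjusted p = 0.0891), while C2 was at 0.23 ± 0.46. Of the lectin pathway genes (5 tested, median 0.68) the pattern recognition gene Fcna was at 1.70 ± 0.37 (adjusted p = 0.0671). The 15 tested regulators were split, 8 higher and 7 lower, with a median of 0.12. Serping1, the C1 inhibitor, was at 1.39 ± 0.41 (adjusted p = 0.096). Cfi, the protease that inactivates C3b, was at -2.20 ± 1.32 (adjusted p = 0.318). The terminal pathway (4 tested, median 0.74) included C7 at 0.17.

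Against HFD mCherry, 28 of the 40 were lower in HFD Tert and 26 in HFD TertCi, with medians of -0.75 and -0.80. Of all genes, 46.2% and 47.4% were higher. The edgeR fit called 0 of the 40 in each (0% and 0.0120% of all genes). Unadjusted p was under 0.05 for 10 and 11 of 40, beside 16.4% and 14.7% of all genes, and DESeq2 called 6 and 5, beside 5.08% and 4.09%. Receptors again had the most extreme medians, -2.02 and -1.82. Fcna stood at -2.06 ± 0.37 and -2.30 ± 0.38 (adjusted p = 0.147 and 0.154).

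**Figure D5:**
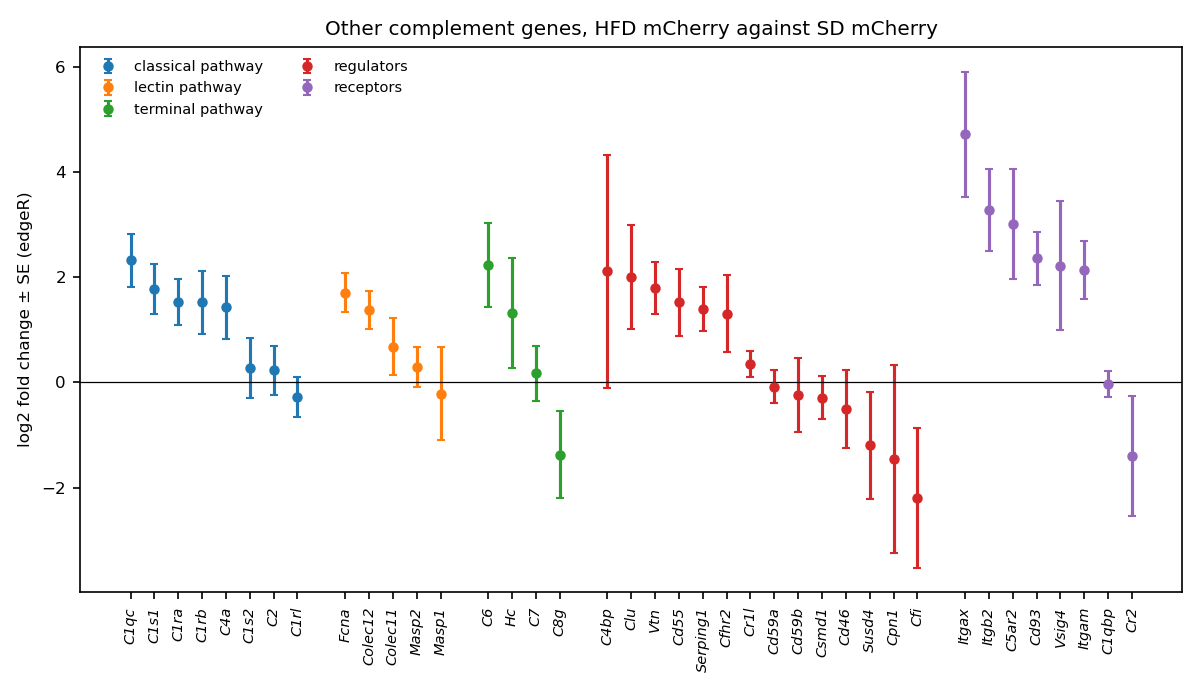
Diet log2 fold change of other complement genes tested, HFD mCherry against SD mCherry, grouped by role, with bars of 1 SE from edgeR. Receptors have a median of 2.29 and classical pathway genes 1.47, and every role has genes on both sides of 0.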

How the data were processed

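Poly-A RNA was sequenced in 12 libraries. Each library's values are raw read counts per gene symbol, as deposited by the authors. Subread, SAMtools, featureCounts 1.6.4 and the build mm10 are named in the submitters' processing notes, without role or order. Which annotation and strand setting were used is not given in the sources used here, so reads of overlapping genes on opposite strands cannot be told apart. The microRNA genes Mir6972 and Mir6978 lie within Cfb and C3 but share no exon bases with them.

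Groups followed the sample labels. Groups were compared by edgeR 4.0.16 (R 4.3.3) on the counts as deposited (filterByExpr, TMM, 1 robust quasi-likelihood model over 12 libraries, no covariate, 2-sided, Benjamini-Hochberg over 16713 genes, called at an adjusted p under 0.05). Residual degrees of freedom were 8 and the common biological coefficient of variation 0.536. Log2 CPM used a prior count of 0.5. The most alike replicates still had a chi-square of 20.5 per degree of freedom, above counting noise. Alternatives were DESeq2 1.42.0, limma-voom 3.58.1, other scaling and filters, 2-group fits, an epididymis covariate and leaving out each library. Scripts were tested on simulated data. Named genes were the 9 genes, the complement list by role, and the genes with the closest pattern. Of the genes that met this rule, 1 is not reported here. The genes, lists and alternatives were chosen with earlier results of these data known. Coordinates are from GENCODE M21 on GRCm38, and promoter sequences from RefSeq on GRCm38.p6.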

Additional observations from a re-analysis of the deposited data

How the results depend on the processing

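The precision is limited by 3 libraries a group and a wide spread, and Cfd in HFD mCherry rests on 7 reads a library. Calls were again counted over the 8 genes other than Cfd, which was chosen for its level in HFD mCherry. In the diet comparison edgeR called 0 of the 8 (0.0479% of all genes), DESeq2 6 (12.4%) and the epididymis covariate 4 (3.18%). Both limma-voom and a fit of the 2 groups alone called 0. With 1 library left out the count was 0 to 6, with 6 reached without HFD mCherry replicate 15 (12.2% of genes). What made the counts differ was not tested. Other complement genes called numbered 0, 12 in DESeq2 and 5 with the covariate, and 0 to 14 with 1 library left out. For HFD Tert against HFD mCherry the 8 genes gave 0 calls, 4 in DESeq2 (5.08% of all genes), 5 with the covariate (3.84%) and 0 to 1 with 1 library left out. In the same order the other complement genes gave 0, 6, 5 and 0. For HFD TertCi against HFD mCherry the 8 genes gave 0, 4 (4.09% of all genes), 4 (1.76%) and 0 to 2, and the other complement genes 0, 5, 4 and 0 to 2. For HFD TertCi against SD mCherry the 8 genes gave 0 calls in each of these settings (0.7% of all genes with the covariate). The choice of Cfd used the SD mCherry libraries as well, so its values in this comparison are a description with no test. For the 9 genes no direction turned in the diet comparison or in either comparison of a Tert group with HFD mCherry. Of the other complement genes, Clu had a positive diet value with all libraries and was called lower without HFD mCherry replicate 15.

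Directions near 0 turned elsewhere. For HFD Tert against HFD TertCi, limma-voom gave -0.14 for Cfp, -0.17 for C5ar1, -0.10 for C1qa and -0.12 for C1qb, and the covariate -0.35 for Cfp, -0.21 for C3ar1, -0.47 for C5ar1, -0.27 for C1qa and -0.32 for C1qb. With 1 library left out, values ran from -0.048 to 0.61 for C3, -0.81 to 0.46 for Cfp, -0.42 to 0.16 for C4b, -0.53 to 0.52 for C3ar1, -0.96 to 0.51 for C5ar1, -0.62 to 0.41 for C1qa and -0.64 to 0.36 for C1qb. For HFD Tert against SD mCherry, the covariate gave -0.093 for Cfp, -0.35 for C4b, -0.69 for C5ar1, -0.024 for C1qa and -0.31 for C1qb, library size alone gave -0.067 for C4b, and with 1 library left out values ran from -0.025 to 0.56 for Cfb, -0.22 to 1.08 for Cfp, -0.21 to 0.26 for C4b, -0.82 to 0.29 for C3ar1, -0.80 to 0.66 for C5ar1, -0.10 to 0.97 for C1qa and -0.33 to 0.66 for C1qb. For HFD TertCi against SD mCherry, the covariate gave -0.032 for C4b and -0.23 for C5ar1, and with 1 library left out values ran from -0.18 to 0.41 for Cfb, -0.073 to 0.45 for C4b, -0.68 to 0.11 for C3ar1 and -0.24 to 0.51 for C5ar1. No paired analysis was possible because each replicate number occurs in 1 group alone.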

Other observations

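2 complement regulators had 1 library far from the rest. C4bp, which binds C4b and aids its inactivation, was counted 11433 times in HFD mCherry replicate 15 and 12 and 5 times in replicates 17 and 20. Clu, a regulator of the terminal complex and the secreted chaperone clusterin, was counted 60496 times in replicate 15 and 2366 and 2384 times in replicates 17 and 20. In the other groups C4bp ranged from 0 to 1662 reads and Clu from 3887 to 8732 reads. The diet log2 fold change of Clu, 2.003 ± 0.99, thus rests on replicate 15: replicates 17 and 20 stood at 142 CPM each, below the 297 to 308 CPM of SD mCherry. Replicate 15 also had the highest epididymis and epithelium level of its group. The mean log2 CPM of that list was 8.72 there, 3.52 in replicate 17 and 2.33 in replicate 20. In other groups it was higher still in SD mCherry replicates 1 and 3 (9.23 and 9.39) and HFD TertCi replicate 30 (8.91). Those libraries held 5837, 5309 and 6141 Clu reads and 1662, 1051 and 724 C4bp reads. The part of that tissue in the C4bp and Clu counts was not tested.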
